A study of Mus musculus with 18 samples.

Results

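The genes described here mark the blood vessels of the retina. The list holds 35 genes of the 78239 in the deposited table of the mouse retina and was put together by name, from what the genes are known to do, at a time when earlier results of these data were known. It has 10 pan-endothelial genes, 4 transcription factors of endothelial cells, 5 genes of the blood-retina barrier or of leaky endothelium, 7 genes of tip cells and sprouting, and 9 genes of mural cells, which are the pericytes and smooth muscle cells that wrap the endothelial tube. The question was whether the RNA of these genes changed in whole retinas in which rods produced a HIF1A protein that is stable in normal oxygen.

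Endothelial cells line every vessel, and in the retina they are sealed by tight junctions and carry dedicated transporters, so that blood and neural tissue stay separated. When vessels sprout, a tip cell at the front follows VEGF, is restrained through DLL4 and NOTCH signalling, and secretes factors such as PDGFB that recruit mural cells through their receptor PDGFRB. ANGPT1 from mural cells stabilizes vessels through the receptor TEK, and ANGPT2 from endothelial cells opposes it.

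The retinal libraries were 5 from eyes injected with AAV::*nsHif1a* and 5 from eyes injected with AAV::eGFP, taken at 3 weeks post injection (wpi). Both vectors were placed under the retina of wild-type mice about a month after birth and used the mouse opsin promoter, which is active in rods, so that vascular cells themselves were not the target and only part of each retina was transduced. The labels give the genotype as C57BL/6J, while the methods of the study name 129S6 mice, and the data were not used to decide between them. In a 2nd experiment, 661W cells, a single photoreceptor-like line derived from a mouse retinal tumor, were transfected with plasmids that express *nsHif1a* or eGFP from the CMV promoter and harvested after 20 h (4 libraries per group). Nothing in the labels says that the 4 cell libraries of a group were separate cultures, and the labels do not say that each retina came from another mouse. The *p*-values therefore measure the spread between these libraries, which may be technical.

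Library totals were between 12898220 and 16167522 counts in the retina and between 13424326 and 17809585 in the cells. At this depth 3 counts, taken here as the limit of detection, correspond to 0.168 to 0.233 CPM (counts per 1e6 counts of the library, after scaling), a limit that covers counting error alone. *Hif1a* itself, counted together with the transgene, ranged from 8713 to 11286 counts over the control retinas and from 8565 to 10909 over the AAV::*nsHif1a* retinas, a log2 fold change (log2FC) of 0.05 (standard error (SE) 0.04, adjusted *p* = 0.504, limma), so it does not separate the 2 retinal groups. In the cells the ranges were 2183 to 2735 counts (eGFP) and 17668 to 33418 counts (*nsHif1a*). The retinal groups also differed in *Xist*, the transcript of the inactive X chromosome, which was present in AAV::eGFP libraries 1 and 2 and in every AAV::*nsHif1a* library and nearly absent (1 to 3 counts) from AAV::eGFP libraries 3, 4 and 5. In those 3 libraries *Xist* and 4 genes of the Y chromosome (*Ddx3y*, *Eif2s3y*, *Kdm5d* and *Uty*) together reached 203 to 217 CPM. By their RNA these 3 control retinas were thus male, so sex differed between the groups and the presence of *Xist* stands for it. In bulk retina a higher level of the vascular genes can come from more vascular cells or from more RNA per cell, and the 2 cannot be told apart.

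All 35 genes had counts in the retina, and 33 passed the filter on low counts. Of these, 1 gene was upregulated, the mural cell adhesion gene *Mcam*, where upregulated means an adjusted *p*-value under 0.05 and a log2FC above 0.5 (limma with Benjamini-Hochberg adjustment over 18859 genes). It was also the only one of the 33 with an adjusted *p*-value under 0.05 at any fold. Among all genes tested, 1.08% were upregulated and 0.912% downregulated (1.99% together), and 5.79% had an adjusted *p*-value under 0.05. The 0 downregulated vascular genes were also 0 by edgeR and by DESeq2. With a lower level, 0 of the 33 had an unadjusted *p*-value under 0.05, where 11% of all genes did. On the side of higher levels, 6 genes had an unadjusted *p*-value under 0.05, where 10.7% of all genes did (*Emcn*, *Cldn5*, *Dll4*, *Rgs5*, *Kcnj8* and *Mcam*).

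Small positive differences prevailed in the list. The log2FC was above 0 for 28 of the 33 genes and below 0 for 5 (*Sox17*, *Apln*, *Pdgfrb*, *Cspg4* and *Angpt1*), with a median of 0.15, while the median of all genes was -0.002 and 49.4% of them lay above 0. Values ranged from -0.43 for *Cspg4* to 0.85 for *Emcn*. Genes of the same vessels share their source in each retina, so the 33 values are not independent measurements. In the 7 libraries with *Xist* counts, without 3 of the controls, 34 of the genes could be tested and 17 were higher and 17 lower. The added gene was *Aplnr*, with 2 counts in both of the controls left. It passed the filter through its AAV::*nsHif1a* counts, so its higher level was a condition of its entry. In these 7 libraries the median log2FC of the pan-endothelial genes and of the transcription factors was below 0 (-0.10 and -0.11). The median was 0.17 for the barrier genes (3 of 5 higher) and 0.07 for the mural genes (5 of 9 higher). For the tip cell genes it was 0.26 (5 of 6 higher, *Aplnr* among them).

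**Figure D1:**
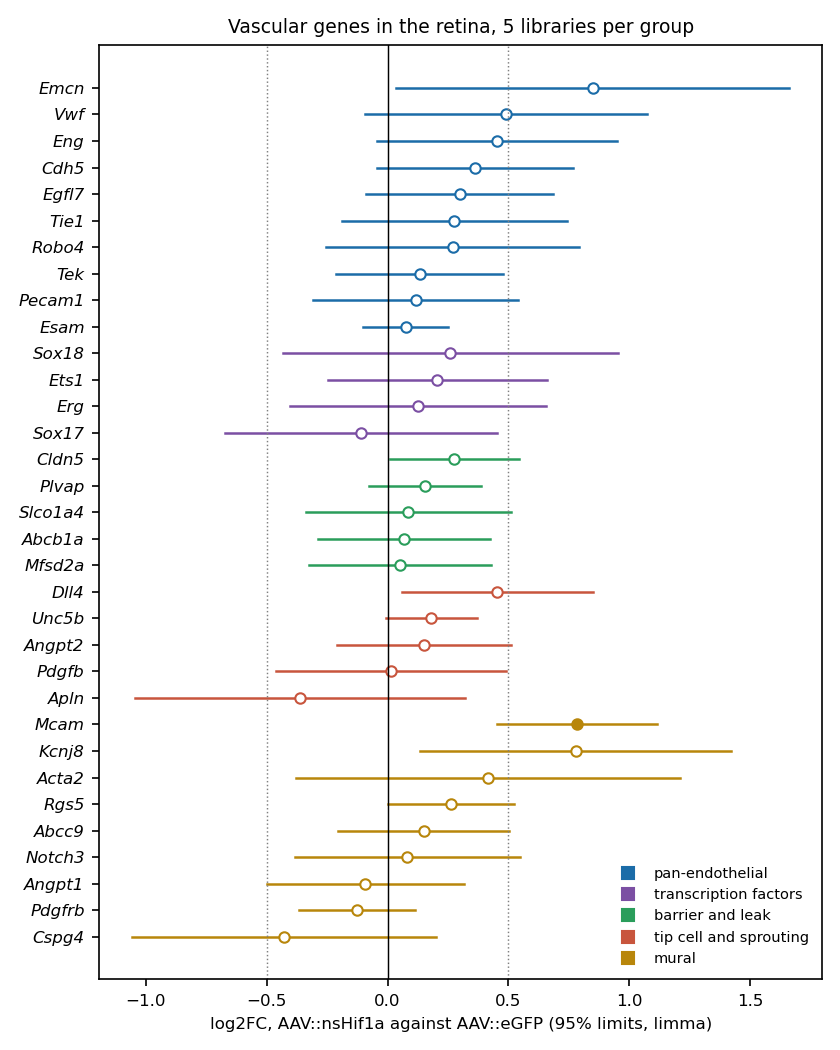
The log2FC of AAV::*nsHif1a* against AAV::eGFP retinas (horizontal axis, log2 scale) is plotted for the 33 tested genes, grouped by colour, with bars for the 95% limits from limma. The filled point is *Mcam* at 0.78, the only upregulated gene, and the dotted lines mark -0.5 and 0.5.

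The 10 pan-endothelial genes were all expressed, and their log2FC values were all above 0 (median 0.29), but 0 were upregulated by limma, edgeR or DESeq2 and 1, *Emcn*, had an unadjusted *p*-value under 0.05. *Emcn* codes for endomucin, a sialoprotein of capillary and venous endothelium. Its counts in AAV::eGFP libraries 1 to 5 were 15, 24, 14, 14 and 15, and in AAV::*nsHif1a* libraries 1 to 5 they were 8, 33, 36, 36 and 52. The groups overlapped because AAV::*nsHif1a* library 1 was the lowest of all 10, while the other 4 lay above every control. The mean went from 1.12 ± 0.268 to 2.20 ± 1.01 CPM (SD, n = 5 each), a log2FC of 0.85 (SE 0.37, adjusted *p* = 0.209, limma). Without AAV::*nsHif1a* library 1 it was 1.16 and passed both thresholds (adjusted *p* = 0.00996, limma), which is the only library whose omission changed the call.

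The next largest differences in this group belonged to *Vwf*, which codes for the von Willebrand factor of blood clotting, and *Eng*, which codes for the TGF-beta coreceptor endoglin. *Vwf* had 150, 287, 93, 99 and 130 counts with AAV::eGFP and 125, 190, 188, 205 and 348 with AAV::*nsHif1a* (log2FC 0.49, adjusted *p* = 0.317, limma). *Eng* had 119, 132, 87, 96 and 73 counts with AAV::eGFP and 83, 112, 176, 140 and 210 with AAV::*nsHif1a* (log2FC 0.45, adjusted *p* = 0.275, limma). For both genes, AAV::eGFP libraries 1 and 2 were the highest controls and the groups overlapped widely. The junctional cadherin gene *Cdh5* (log2FC 0.36), the angiopoietin pathway receptors *Tie1* (0.28) and *Tek* (0.13), the secreted vessel factor *Egfl7* (0.30), the guidance receptor *Robo4* (0.27), and the adhesion genes *Pecam1* (0.12) and *Esam* (0.08) followed. The smallest interval was that of *Esam*, whose 95% limits were -0.10 and 0.25, so a change as large as the threshold of 0.5 is outside the limits in either direction.

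The summed level of the 10 pan-endothelial genes showed how the libraries divide. It was 76.2, 88.0, 49.4, 56.6 and 61.9 CPM in AAV::eGFP libraries 1 to 5, and 64.5, 67.1, 88.0, 83.7 and 101 CPM in AAV::*nsHif1a* libraries 1 to 5. The 2 controls with *Xist* counts lay above both AAV::*nsHif1a* libraries 1 and 2, and the 3 controls without *Xist* counts lay below all 5 AAV::*nsHif1a* libraries. In the controls alone, both libraries with *Xist* counts exceeded the 3 without for 16 of the 33 vascular genes (48.5%), against 15.7% of all genes tested, and the reverse held for 1 of 33 (3.03%, against 15.7% of all genes). The 16 include 8 of the pan-endothelial genes, all but *Pecam1* and *Esam*. With the *Xist* class as a covariate, 4 of the 10 pan-endothelial genes were higher and 6 lower (median log2FC -0.11). *Xist* class and vector overlap in this design, since no AAV::*nsHif1a* library lacked *Xist*, and the part of the class in these values cannot be told apart from other differences between the same control retinas.

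Markers of other cells were measured beside these genes. The 12 microglia and macrophage genes all had a log2FC above 0, 6 of them at an unadjusted *p*-value under 0.05 and 0 called by limma, edgeR or DESeq2, with summed levels of 32.8 to 213 CPM in controls and 67.5 to 209 CPM with AAV::*nsHif1a*, so the groups overlapped. Their 2 highest controls were the same AAV::eGFP libraries 1 and 2. All 12 rod genes had a log2FC below 0, 9 at an unadjusted and 5 at an adjusted *p*-value under 0.05, with 0 past the fold threshold. Among all genes, 11% were lower at an unadjusted *p*-value under 0.05. The summed level of the rod genes was 51186 to 56485 CPM in controls and 40060 to 53200 CPM with AAV::*nsHif1a*. A lower share of rod RNA raises the share of every other cell type in a bulk library, and the part of this in the vascular values was not tested.

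The endothelial transcription factors were expressed at low levels, and 0 of the 4 were called by limma, edgeR or DESeq2 or had an unadjusted *p*-value under 0.05. *Ets1*, an ETS factor of wide expression, had a log2FC of 0.21, *Erg*, the ETS factor that maintains endothelial identity, of 0.13, *Sox18* of 0.26 and *Sox17*, which acts in arterial endothelium, of -0.11. *Sox18* had 20, 31, 20, 17 and 18 counts in controls and 10, 20, 37, 38 and 33 with AAV::*nsHif1a*. The lowest of all 10 libraries was again AAV::*nsHif1a* library 1. With the *Xist* class as a covariate all 4 factors had a log2FC below 0 (median -0.12).

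The barrier genes differed little. *Cldn5*, the main claudin of tight junctions in neural vessels, had 130, 162, 143, 129 and 129 counts with AAV::eGFP and 137, 153, 207, 177 and 179 with AAV::*nsHif1a*. AAV::*nsHif1a* libraries 3, 4 and 5 lay above every control and libraries 1 and 2 among them. The log2FC was 0.28 (95% limits 0.01 and 0.54, adjusted *p* = 0.215, limma), so the limits hold no lower level. *Mfsd2a*, the lipid transporter that restrains transcytosis, had a log2FC of 0.05 (limits -0.33 and 0.43), the anion transporter gene *Slco1a4* 0.08 (-0.34 and 0.51), and *Abcb1a*, which codes for the efflux pump P-glycoprotein, 0.07 (-0.29 and 0.42). Of the transcript words of *Abcb1a*, 15.87% are shared with other genes, mostly its paralog *Abcb1b*, so reads may be divided between them.

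*Plvap* codes for the diaphragm protein of fenestrated and leaky endothelium, which barrier vessels lack. It had 133, 131, 148, 140 and 144 counts in controls and 147, 180, 166, 121 and 165 with AAV::*nsHif1a*. By CPM, AAV::*nsHif1a* library 4 was the lowest of all 10, libraries 1, 2 and 3 lay above every control and library 5 among them, for a log2FC of 0.15 (limits -0.08 and 0.38, adjusted *p* = 0.433, limma). Levels per kilobase of exon allow genes to be compared, and with AAV::eGFP *Plvap* stood at 4.39 CPM per kb, below *Cldn5* at 6.71 and above *Pecam1* at 1.08. The choroid, whose vessels are fenestrated, lies next to the pigment epithelium, so the pigment epithelium markers were set beside it. Their summed level was 90.5, 84.0, 592, 267 and 190 CPM in AAV::eGFP libraries 1 to 5. It was 70.0, 59.4, 360, 771 and 187 CPM in AAV::*nsHif1a* libraries 1 to 5. *Plvap* was at 10.2, 8.46, 9.16, 9.25 and 10.8 CPM in the same controls. With AAV::*nsHif1a* it was at 11.0, 11.3, 11.8, 8.25 and 10.6 CPM. Pigment epithelium markers do not measure the choroidal vessels themselves, and the source of the *Plvap* RNA was not tested.

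Among the genes of tip cells and sprouting, 0 of the 5 tested were called by limma, edgeR or DESeq2 and 1, *Dll4*, had an unadjusted *p*-value under 0.05. *Dll4* codes for the NOTCH ligand with which tip cells restrain their neighbours. Its counts were 25, 21, 17, 20 and 24 with AAV::eGFP and 28, 30, 31, 30 and 33 with AAV::*nsHif1a*. By CPM, the groups met only at their edges, with a highest control of 1.91 CPM and a lowest AAV::*nsHif1a* library of 1.89 CPM. The log2FC was 0.45 (SE 0.18, adjusted *p* = 0.17, limma), and 0.36 in the libraries with *Xist* counts (adjusted *p* = 0.468). *Unc5b*, the netrin receptor of tip cells, had a log2FC of 0.18, *Angpt2*, which codes for the destabilizing angiopoietin, of 0.15, and *Pdgfb*, the pericyte recruiting factor, of 0.01. For *Angpt2* the 95% limits were -0.21 and 0.51.

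*Apln* codes for apelin, a peptide of sprouting endothelium, and it was the gene of this group with a lower level, from 3.70 ± 1.63 to 2.85 ± 1.03 CPM (SD, n = 5 each; log2FC -0.36, adjusted *p* = 0.542, limma). Its counts were 28, 36, 99, 66 and 47 with AAV::eGFP and 37, 29, 61, 49 and 31 with AAV::*nsHif1a*. The 3 controls without *Xist* counts and AAV::*nsHif1a* library 3 had the 4 highest levels by CPM, and in the libraries with *Xist* counts the log2FC was 0.27 (adjusted *p* = 0.751, limma). The gene lies on the X chromosome.

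*Aplnr* and *Esm1* did not pass the filter and were examined by their counts. *Aplnr* codes for the apelin receptor of sprouting and venous endothelium, and it had 2, 2, 0, 0 and 1 counts in AAV::eGFP libraries 1 to 5 and 2, 6, 16, 14 and 29 counts in AAV::*nsHif1a* libraries 1 to 5. Every control was at or below the limit of 3 counts, 4 of the 5 AAV::*nsHif1a* libraries were above it, and the groups met at 2 counts. The mean was 0.0715 ± 0.0710 CPM with AAV::eGFP and 0.895 ± 0.674 CPM with AAV::*nsHif1a* (SD, n = 5 each; two-sided exact permutation test, p = 0.0159, where the smallest p possible is 0.00794). Fitted without the filter, the log2FC was 3.00 (SE 0.74, adjusted *p* = 0.0611, limma), a value that depends on how counts near 0 are offset. The gene passed the threshold by edgeR (adjusted *p* = 0.0122) and by DESeq2 (adjusted *p* = 0.00213), both without the filter. These 2 fits were not among the planned ones. With the *Xist* class as a covariate the log2FC was 1.96 (adjusted *p* = 0.53, limma). The 2 controls with *Xist* counts had 2 counts each and the 3 without had 0, 0 and 1.

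*Esm1* codes for endocan, a proteoglycan secreted by tip cells under VEGF. It had 0, 3, 2, 1 and 0 counts with AAV::eGFP and 0, 1, 5, 3 and 15 with AAV::*nsHif1a*. Only AAV::*nsHif1a* libraries 3 and 5 were above 3 counts, so a difference was not detectable at this depth (two-sided exact permutation test, p = 0.19). AAV::*nsHif1a* library 5 had the highest count of both genes.

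**Figure D2:**
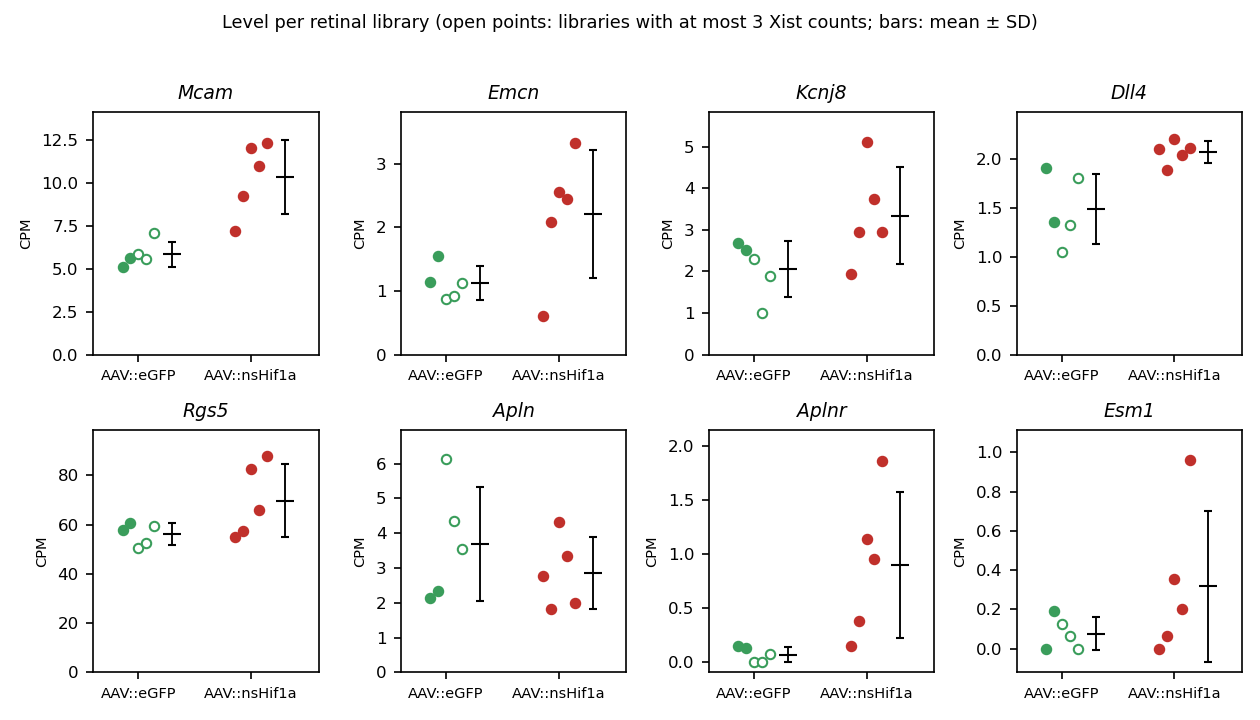
Levels in CPM (vertical axes, linear) are plotted for 8 vascular genes in each of the 5 AAV::eGFP (green) and 5 AAV::*nsHif1a* (red) retinas, with mean ± SD beside the points and open points for libraries with at most 3 *Xist* counts. The groups are apart for *Mcam* alone, and AAV::*nsHif1a* library 1 (leftmost red point) is the lowest of its group for *Mcam*, *Emcn*, *Kcnj8*, *Rgs5* and *Aplnr*.

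The mural group holds the called gene. *Mcam* (ENSMUSG00000032135.16, plus strand of chromosome 9 of GRCm39, 44045504 to 44054025) codes for CD146, an adhesion molecule of pericytes, smooth muscle and some endothelium. Its counts were 67, 87, 95, 84 and 94 with AAV::eGFP and 96, 147, 170, 161 and 192 with AAV::*nsHif1a*. Every AAV::*nsHif1a* library lay above every control by CPM, the nearest pair being 7.20 CPM in AAV::*nsHif1a* library 1 and 7.08 CPM in AAV::eGFP library 5. This separation upward held for 1 of the 33 vascular genes and for 3.25% of all genes, and the reverse for 0 of 33 and for 2.69%. The level went from 5.85 ± 0.738 to 10.4 ± 2.14 CPM (SD, n = 5 each), a log2FC of 0.78 (SE 0.15, 95% limits 0.45 and 1.11, adjusted *p* = 0.0111, limma), and edgeR and DESeq2 called it too.

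The rise of *Mcam* did not rest on a single library. It was called in all 10 fits that left out 1 library, with a log2FC between 0.70 and 0.89 and a largest adjusted *p*-value of 0.0316 (limma). The 2 controls with *Xist* counts had 5.12 and 5.62 CPM and the 3 without had 5.55 to 7.08 CPM, so in contrast to most endothelial genes *Mcam* was not higher in the former. With the *Xist* class as a covariate the log2FC was 0.91 (adjusted *p* = 0.0427, limma). In the 7 libraries with *Xist* counts it was 0.92 and lost the call (adjusted *p* = 0.0852), as it did at 0.78 with the level of lens γ-crystallin genes as a covariate (adjusted *p* = 0.0599, limma in each case).

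The pericyte channel genes came next. *Kcnj8* codes for the pore of the potassium channel of brain and retinal pericytes that *Abcc9* completes with its regulatory subunit. *Kcnj8* had 35, 39, 37, 15 and 25 counts with AAV::eGFP and 26, 47, 72, 55 and 46 with AAV::*nsHif1a*. AAV::*nsHif1a* library 1 lay among the controls and the other 4 above them, for a log2FC of 0.78 (SE 0.30, adjusted *p* = 0.149, limma), or 0.36 in the libraries with *Xist* counts. *Abcc9* had a log2FC of 0.15 (limits -0.20 and 0.50).

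*Rgs5*, a regulator of G protein signalling in mural cells, had the highest level per length of all 35 genes, 12.1 CPM per kb with AAV::eGFP. Its counts were 758, 938, 815, 795 and 788 with AAV::eGFP and 732, 908, 1161, 965 and 1367 with AAV::*nsHif1a*. Libraries 3 and 5 were the highest and libraries 1 and 2 lay within the range of the controls, for a log2FC of 0.26 (limits 0.00 and 0.52, adjusted *p* = 0.228, limma). *Pdgfrb*, the receptor for PDGFB, had a log2FC of -0.13 with the upper limit at 0.11, which was the lowest upper limit in the list. The pericyte proteoglycan gene *Cspg4*, also known as NG2, was at -0.43 and *Notch3*, the NOTCH receptor of mural cells, at 0.08. *Angpt1*, which codes for the stabilizing angiopoietin, was at -0.09 (limits -0.50 and 0.32).

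*Acta2*, the smooth muscle actin gene, had the second highest level per length with AAV::eGFP (8.14 CPM per kb) and one of the widest spreads. It was at 17.9, 20.8, 16.96, 34.1 and 32.7 CPM in AAV::eGFP libraries 1 to 5 and at 37.1, 26.8, 47.9, 59.9 and 10.6 CPM in AAV::*nsHif1a* libraries 1 to 5. AAV::*nsHif1a* library 5, which was the highest of all for 11 of the 33 genes, was the lowest for this one. The summed level of 6 γ-crystallin genes, which mark the lens, was 682, 2077, 634, 2817 and 947 CPM in the same controls and 10904, 1299, 11515, 18956 and 920 CPM with AAV::*nsHif1a*. The 3 AAV::*nsHif1a* libraries with the most lens RNA were the 3 with the most *Acta2*. The log2FC of *Acta2* was 0.42 (adjusted *p* = 0.55, limma) and turned to -0.31 with the γ-crystallin level as a covariate (adjusted *p* = 0.685). With that covariate 4 of the 9 mural genes had a log2FC above 0 (median -0.05), against 6 of 9 without it. Over the whole list it was above 0 for 23 of 33 genes with a median of 0.08, and 2 genes had an unadjusted *p*-value under 0.05.

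In the summed levels of the mural, barrier and tip cell genes, 3 of the 5 AAV::*nsHif1a* retinas lay above all controls. The sum of the mural genes was 132, 141, 114, 141 and 151 CPM in AAV::eGFP libraries 1 to 5 and 145, 135, 198, 185 and 172 CPM in AAV::*nsHif1a* libraries 1 to 5. The sum of the barrier genes was 48.2 to 56.6 CPM in the controls, 46.4 and 49.0 CPM in AAV::*nsHif1a* libraries 1 and 2, and 64.8, 63.1 and 60.1 CPM in libraries 3, 4 and 5. For the tip cell genes the same 3 libraries had 33.7 to 34.8 CPM and the other 7 had 27.2 to 30.3 CPM. Library 5 was the highest of all 10 for 33.3% of the vascular genes (12% of all genes) and library 3 for 30.3% (7.94% of all genes), while AAV::eGFP library 3 was the lowest for 36.4% (10.4% of all genes). These are descriptions of single retinas, and no group was formed from them.

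**Figure D3:**
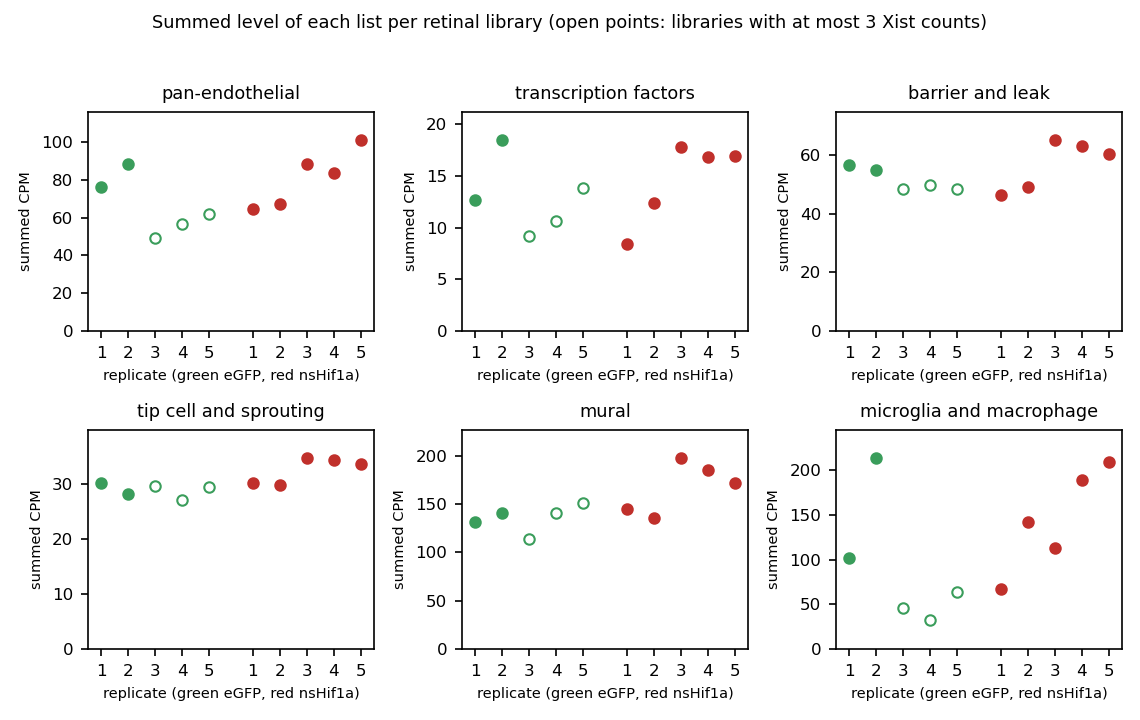
The summed CPM of each group of vascular genes and of the microglia and macrophage markers (vertical axes, linear from 0) is plotted for every retinal library, green for AAV::eGFP and red for AAV::*nsHif1a*, with open points for libraries with at most 3 *Xist* counts. In the barrier, tip cell and mural sums AAV::*nsHif1a* libraries 3, 4 and 5 lie above all controls and libraries 1 and 2 among or below them, and in the pan-endothelial sum the filled controls (76.2 and 88.0 CPM) lie above the open ones (49.4 to 61.9 CPM).

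**Figure D4:**
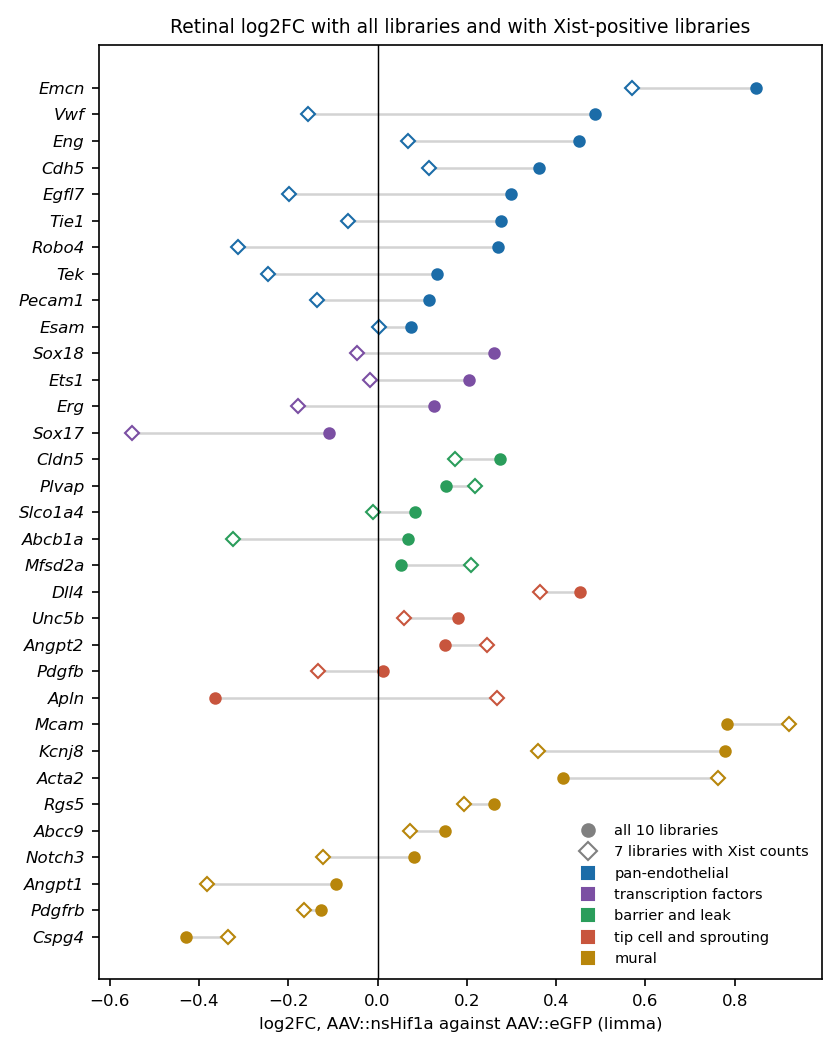
The retinal log2FC (horizontal axis, log2 scale) of the 33 genes is plotted from all 10 libraries (circles) and from the 7 libraries with *Xist* counts (diamonds), joined by a line for each gene. All 4 transcription factors and 6 of 10 pan-endothelial genes lie below 0 in the latter, while *Mcam* moves from 0.78 to 0.92.

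Since HIF1 binds DNA at a short core, the letters ACGTG or GCGTG on either strand were looked up in the 250 bases before the start of the main transcript of each gene (GRCm39). Such a word occurred in 14 of the 35 vascular genes (40%) and in 41.3% of the 21770 protein-coding genes, and ACGTG alone in 17.1% and 17%. The share of the vascular genes was thus close to the background. The windows are shown for the receptor *Aplnr* and its ligand *Apln*, a pair whose values are followed in both retina and cells here. They lie at chr2:84966319-84966568 (plus strand) and chrX:47123776-47124025 (minus strand). They are written 5′ to 3′ in the direction of the gene, where capitals would mark the searched word.
*Aplnr*: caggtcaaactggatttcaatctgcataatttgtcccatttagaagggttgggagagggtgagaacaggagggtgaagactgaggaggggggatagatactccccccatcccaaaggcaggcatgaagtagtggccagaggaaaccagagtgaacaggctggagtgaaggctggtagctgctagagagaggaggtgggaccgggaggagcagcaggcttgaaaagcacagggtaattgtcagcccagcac
*Apln*: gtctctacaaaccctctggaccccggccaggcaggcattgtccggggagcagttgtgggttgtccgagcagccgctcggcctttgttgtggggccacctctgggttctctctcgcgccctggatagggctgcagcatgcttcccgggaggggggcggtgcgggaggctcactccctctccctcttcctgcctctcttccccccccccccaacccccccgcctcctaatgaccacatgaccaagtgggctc
In the genome the *Aplnr* window overlaps *Lrrc55os* on the plus strand. Both windows held 0 such words. A match of 5 letters is frequent by itself and marks no binding site, and its absence here says nothing of sequence farther away.

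Other vascular genes that are not in the list were examined in the same fit. Of 26 further endothelial genes tested, 18 were higher and 8 lower and 0 were called by limma, edgeR or DESeq2, with 8 at an unadjusted *p*-value under 0.05, where 21.7% of all genes had one in either direction. Singled out after their values were seen, the VEGF receptor gene *Kdr* (log2FC 0.26, adjusted *p* = 0.049) and the endothelin receptor gene *Ednrb* (0.48, adjusted *p* = 0.0313, both limma) passed the adjusted *p*-value but not the fold threshold. Neither passed the adjusted *p*-value by edgeR (0.0695 and 0.0588) or in limma with the *Xist* class as a covariate (0.383 and 0.272, log2FC 0.14 and 0.34). Both genes are also expressed outside vessels in the retina. Of the 15 further mural genes tested, 7 were higher and 8 lower, and *Cox4i2*, which codes for a lung and pericyte isoform of a respiratory chain subunit, was upregulated (0.58, adjusted *p* = 0.00802, limma), although not with the *Xist* class as a covariate (0.31, adjusted *p* = 0.14, limma). Below the fold threshold, *Vtn*, which codes for vitronectin, and *Mylk*, which codes for myosin light chain kinase, had a lower level at an adjusted *p*-value under 0.05 (log2FC -0.31 and -0.44, adjusted *p* = 0.0031 and 0.00849, limma), named likewise after their values were seen.

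The 8 further tip cell genes tested were divided into 4 higher and 4 lower, with 0 called by limma, edgeR or DESeq2 and 2 at an unadjusted *p*-value under 0.05. Of 4 adhesion and activation genes tested, 3 were higher, and 0 were called by any of the 3 tools or had an unadjusted *p*-value under 0.05. The leukocyte selectin genes *Sele* and *Selp*, which inflamed endothelium displays, were among those too low to test, with at most 6 and 4 counts in any library. Of 11 genes of the vascular basement membrane 10 were lower, again with 0 called by the 3 tools and 0 at an unadjusted *p*-value under 0.05 (median log2FC -0.13). Their summed level was 784 CPM in AAV::*nsHif1a* library 4, which stood apart, 1679 to 2162 CPM in the other 4 and 1443 to 2046 CPM in the controls. Of 13 genes of the WNT and norrin pathway that builds the barrier, or of barrier junctions and transport, 10 were higher. *Ndp*, which codes for the ligand norrin, was upregulated by limma (0.51, adjusted *p* = 0.0019) and by DESeq2. By edgeR its log2FC stood just under the threshold at 0.499, as it did by voom without quality weights (0.495). In the libraries with *Xist* counts *Ndp* lost the call (0.53, adjusted *p* = 0.0535, limma). With the *Xist* class as a covariate it was called (0.52, adjusted *p* = 0.0175, limma).

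The ligands that act on vessels were listed too, with earlier results known. Of 19 angiogenic ligand genes tested, 4 were upregulated, where 1.08% of all genes were. For these 4 every AAV::*nsHif1a* library lay above every control, as for 3.25% of all genes. The reverse held for *Slit2* (log2FC -0.07, adjusted *p* = 0.257, limma) and for 2.69% of all genes. *Vegfa*, the main growth factor of endothelial cells, had a log2FC of 0.81 (adjusted *p* = 0.000167), the fibroblast growth factor gene *Fgf2* 1.87 (adjusted *p* = 0.00224), the adrenomedullin gene *Adm* 5.24 (adjusted *p* = 0.000176) and the endothelin gene *Edn2* 1.92 (adjusted *p* = 0.00331, all limma). In the libraries with *Xist* counts *Vegfa* and *Adm* stayed called, while *Fgf2* had a log2FC of 1.88 (adjusted *p* = 0.0698) and *Edn2* of 1.25 (adjusted *p* = 0.147, both limma). With the *Xist* class as a covariate *Edn2* was not called either (adjusted *p* = 0.069, limma).

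The remaining marker lists gave the makeup of the retinas. The 4 erythrocyte genes tested were all lower with 0 at an unadjusted *p*-value under 0.05 and summed to 39.1 to 140 CPM in controls and 40.2 to 260 CPM with AAV::*nsHif1a*, so blood was present in every library and varied within groups. Of 6 fibroblast genes tested 2 were higher, of 9 pigment epithelium genes 2 and of 9 astrocyte and Müller cell genes 7. Of these 24 genes, 0 were called by limma, edgeR or DESeq2, with 1, 0 and 3 at an unadjusted *p*-value under 0.05. The 6 γ-crystallin genes were all higher with log2FC values of 1.72 to 3.30, 6 at an unadjusted *p*-value under 0.05, 0 called by limma, 2 by edgeR and 5 by DESeq2.

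How small a change lay outside the 95% limits of the retinal fit differed by gene. The median coefficient of variation between libraries was 23.7% with AAV::eGFP and 25.1% with AAV::*nsHif1a*. The 95% limits lay within -0.5 and 0.5 for 8 of the 33 genes and within -1 and 1 for 26, and the upper limit was below 0.5 for 12. A change of 0.5 thus lay within the limits of most of these genes, while a doubling or halving lay outside for 26. These limits take no account of the *Xist* class. With that class as a covariate the median log2FC of the 33 genes moved from 0.15 to -0.02.

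The 661W cells are a culture without vessels, in which part of the list is expressed all the same. Of the 35 genes, 19 passed the filter, 10 had 0 or 1 counts in every library and 7 of these had 0 counts in all 8 libraries, among them *Cldn5*, *Erg* and *Sox17*. Of the endothelial genes *Cdh5* was at 4.15 ± 0.496 CPM and *Pecam1* at 0.570 ± 0.143 CPM with eGFP (SD, n = 4 each). Some mural and sprouting genes were abundant, and per length *Acta2* stood at 144 CPM per kb with eGFP, *Unc5b* at 55.2, *Mcam* at 39.5, *Cspg4* at 22.2 and *Pdgfrb* at 10.8. For *Mcam* that is far above the 1.75 CPM per kb of the control retinas.

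In the cells, 0 of the 19 genes were upregulated and 0 downregulated by limma and by edgeR, and 2 were upregulated by DESeq2 (*Apln* and *Angpt1*), where limma called 1.21% of all genes up and 0.0626% down (1.27% together) and DESeq2 2.08% up. At an unadjusted *p*-value under 0.05 there were 7 with a higher and 1 with a lower level, where 20.7% of all genes passed. *Apln* had 336, 287, 235 and 187 counts in eGFP libraries 1 to 4 and 413, 329, 656 and 653 in *nsHif1a* libraries 1 to 4. Every *nsHif1a* library was above every eGFP library, and libraries 3 and 4 were farther above. The log2FC was 0.84 (SE 0.21, adjusted *p* = 0.0653, limma), 0.95 when libraries were blocked by replicate number (adjusted *p* = 0.0984, limma) and 0.89 by DESeq2 (adjusted *p* = 0.0023).

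For several genes the response to *nsHif1a* was seen mainly in replicates 1 and 2. *Notch3* had 361, 341, 221 and 194 counts with eGFP and 1598, 1219, 296 and 301 with *nsHif1a*, and *Angpt1* had 125, 119, 96 and 102 against 392, 369, 153 and 114. *Mcam* had 2155, 1986, 2241 and 1844 counts with eGFP and 4293, 3670, 2338 and 2461 with *nsHif1a*. For these genes *nsHif1a* libraries 1 and 2 were far above the controls and libraries 3 and 4 close to them. *Cdh5* went the other way, with 76, 58, 78 and 49 counts with eGFP and 10, 12, 86 and 59 with *nsHif1a*.

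The difference between the replicate sets 1 and 2 and 3 and 4 was tested as an interaction in limma, an addition made after the data were seen. For 9 of the 19 genes this difference had an adjusted *p*-value under 0.05, as it had for 19.6% of all genes. The effect of *nsHif1a* was smaller in replicates 3 and 4 for *Mcam*, *Angpt1*, *Notch3* and *Pdgfrb* and larger, or less negative, for *Abcb1a*, *Cdh5*, *Cspg4*, *Unc5b* and *Apln*. For *Mcam* the log2FC was 0.95 in replicates 1 and 2 and 0.07 in replicates 3 and 4 (difference -0.88, adjusted *p* = 2.32e-09, limma), for *Cdh5* it was -2.56 and 0.01, and for *Apln* 0.26 and 1.47. With the set as a covariate 5 genes were upregulated (*Mfsd2a*, *Mcam*, *Angpt1*, *Notch3* and *Apln*), where 3.71% of all genes were called. Without *nsHif1a* library 1 or library 2 *Apln* was the 1 upregulated gene, where 1.31% and 1.32% of all genes were called. Without *nsHif1a* library 3 or library 4, 7 of the genes were upregulated and 4 downregulated, where 11.6% of all genes were called, so the count of 0 depends on which libraries are kept. The labels do not say what the sets are, and the cause was not tested.

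**Figure D5:**
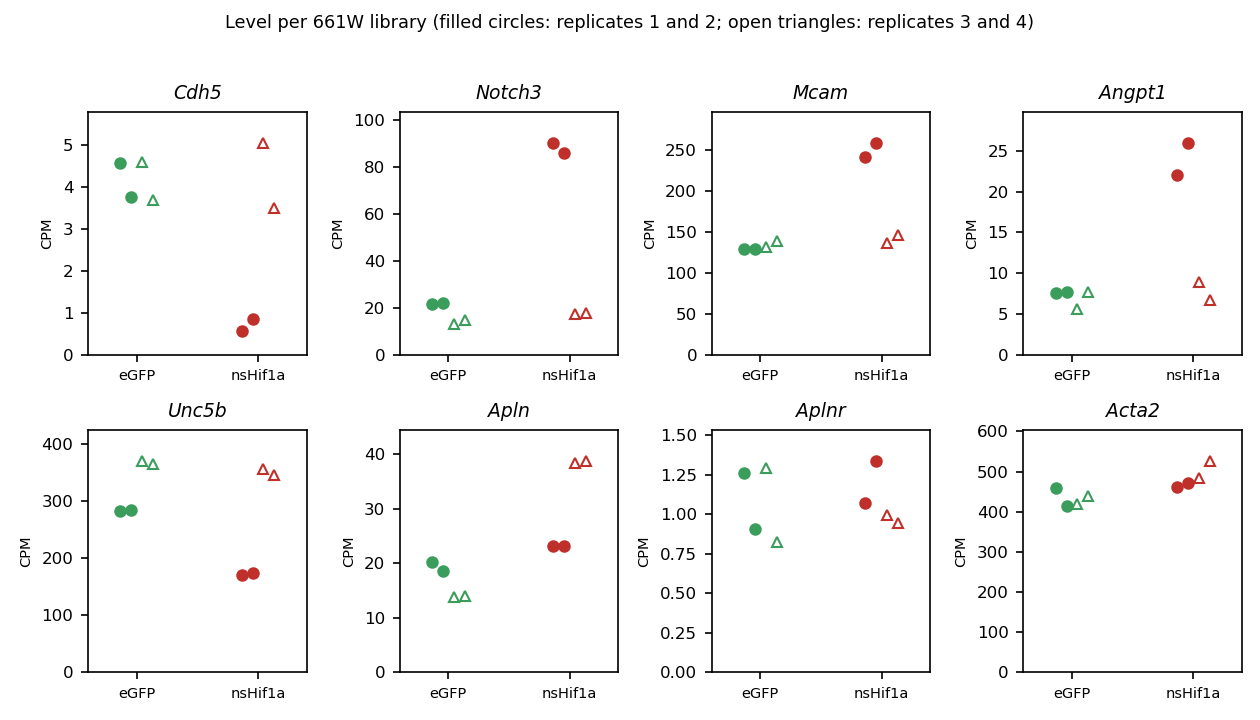
Levels in CPM (vertical axes, linear from 0) are plotted for 8 genes in 661W cells transfected with eGFP (green) or *nsHif1a* (red), with filled circles for replicates 1 and 2 and open triangles for replicates 3 and 4. For *Notch3*, *Mcam* and *Angpt1* the filled red points stand high above the rest, for *Cdh5* and *Unc5b* below, and for *Apln* the open red points are the highest.

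The effects in retina and cells were compared directly by an interaction term over all 18 libraries, in which 20999 genes were tested. Among the vascular genes this term passed an adjusted *p*-value of 0.05 for 1, and among all genes for 2.33%. It was *Aplnr*, with a log2 difference of 3.02 (SE 0.77, 95% limits 1.41 and 4.62, adjusted *p* = 0.0458, limma), which has few counts in the retina and had 21, 14, 22 and 11 counts with eGFP and 19, 19, 17 and 16 with *nsHif1a* in the cells. The 2 groups of cells overlapped fully. *Aplnr* did not pass the filter in the retina alone and entered this fit with its counts in the cells. Its difference thus depends on how counts near 0 in the control retinas are offset. When libraries were blocked by replicate number 0 of the vascular genes differed, as with the *Xist* class as a covariate and with voom without quality weights, while edgeR also gave 1. For *Apln* the difference was -1.29 (adjusted *p* = 0.147) and for *Mcam* 0.35 (95% limits -0.38 and 1.08, adjusted *p* = 0.68, both limma).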

How the data were processed

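RNA was sequenced from 10 mouse retinas and 8 samples of 661W cells as stranded paired-end poly(A) libraries. Rsubread (alignment to GRCm39) and featureCounts (by strand, gencode M36 basic annotation) were the tools of the authors, who deposited raw counts for each gene and library. Libraries were grouped by their titles. For each experiment, genes passing filterByExpr (minimum count 10) were scaled by TMM and fitted across all genes with limma 3.58.1 (voomWithQualityWeights, lmFit, eBayes) in R 4.3.3, after the methods of the study. Genes were called at a Benjamini-Hochberg adjusted *p*-value under 0.05 and an absolute log2FC above 0.5. edgeR 4.0.16 (quasi-likelihood test) and DESeq2 1.42.0 were run as alternatives on the same counts, beside other scalings and filters, covariates for *Xist* class and γ-crystallin level, a replicate block and fits without 1 library. The scripts were tested on simulated data.

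CPM are counts over TMM-scaled library totals. Full statistics were given for genes called in the retina in any planned setting or with groups that do not overlap. Per-library counts of further genes were chosen after their values were seen. The genes and lists were chosen with earlier results of these data known. Promoter windows were the 250 bases before the Ensembl canonical start (gencode M39) on GRCm39. Same-numbered 661W libraries of both groups deviated together (r = 0.25 to 0.29), whereas same-numbered retinas did not (r = -0.17 to 0.16). The closest partners of eGFP cell libraries 1, 2 and 3 were *nsHif1a* libraries 2, 1 and 4, however. The numbers of the cell libraries thus follow the replicate sets 1 and 2 and 3 and 4 and do not establish single pairs. The main limma fit used no block by number. Library totals, which set the precision of single counts, were 12898220 to 17809585 counts.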

Additional observations from a re-analysis of the deposited data

Results flagged for a closer look

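*Pdgfb* was at 1.86 CPM in AAV::eGFP retina 3, far below the other 4 controls, which lay between 3.42 and 3.52 CPM. *Angpt1* was at 5.65 CPM in eGFP library 3 of the 661W cells, below the other 3 at 7.51 to 7.71 CPM. These were the 2 cases of a library standing apart by Dixon's test among the 66 sets of libraries checked in retina and the 38 in cells, and chance alone marks about 1 in 20. For *Aplnr*, the effect of *nsHif1a* in retina exceeded that in 661W cells by 3.02 on the log2 scale (limma interaction, adjusted *p* = 0.0458), with 0 to 2 counts in each control retina and 2 to 29 with AAV::*nsHif1a*. The gene did not pass the filter in the retina alone and was tested here through its counts in the cells.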

How the results depend on the processing

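In the retina, 1 vascular gene (*Mcam*) was upregulated in the limma fit, and 0 were in the 7 libraries with *Xist* counts, with the γ-crystallin covariate, or at an absolute log2FC above 1. The count was 1 to 2 when 1 library was left out, *Emcn* being added without AAV::*nsHif1a* library 1. In the other planned settings it was 1, and 0 genes were downregulated in every planned setting. *Aplnr* also passed the thresholds in 2 unplanned fits without the filter, by edgeR and by DESeq2. In 661W cells the upregulated count was 0 in the limma fit, 2 by DESeq2, 5 with the replicate set as a covariate and 0 to 7 when 1 library was left out, while the downregulated count was 0, or 0 to 4 when 1 library was left out. The count of genes whose effect differed between retina and cells was 1, and 0 with voom without quality weights, with the replicate block of the 661W libraries and with the *Xist* class as a covariate. The cause of these shifts was not tested.

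With the replicate number as a block, *Mcam* in the retina had a log2FC of 0.83 (adjusted *p* = 0.00998, limma), and 0 genes were called in either direction in 661W cells. Beside the interaction count the block changed no call. The retinal numbers do not pair the libraries.

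Depth limits *Aplnr* and *Esm1*, whose control libraries had at most 3 counts. No AAV::*nsHif1a* library lacks *Xist*, so class and vector are separated only through AAV::eGFP libraries 1 and 2.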
